A study of Homo sapiens with 6 samples.

Results

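FOXO1, FOXO3, FOXO4 and FOXO6 encode the FOXO group of forkhead transcription factors, and their transcripts were followed in Karpas-45. This human leukemia cell line of the T lineage is long established and known to carry a KMT2A-FOXO4 fusion. The 4 genes were taken by symbol from the 78932 gene identifiers of the count files by a rule that reads no measured value, although earlier results of these data were known when the set was proposed. All 4 were among the 17677 genes with enough reads to be tested. The expression data came from RNA sequencing of 6 libraries. Of these, 3 are labelled scramble control with genotype WT, and 3 are labelled shMEF2CKD2 with genotype MEF2C KD, which stands for a short hairpin RNA against MEF2C delivered by a lentivirus packaged in HEK293T cells. GFP was linked to this hairpin, and GFP-positive cells were sorted 120 hours after transduction; the vector of the scramble control is not described separately. All 6 are leukemic blasts of bone marrow origin, labelled untreated. The labels call the 3 libraries of each group technical replicates, so the p-values below measure only the spread between such libraries. A single hairpin and a single line were used.

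FOXO proteins act at the end of the insulin and growth factor pathway. When PI3K and AKT are active, AKT phosphorylates FOXO proteins, 14-3-3 proteins bind them, and they leave the nucleus. When the pathway is quiet they enter the nucleus and switch on genes for cell cycle arrest, cell death, stress defence and autophagy. In T cells FOXO1 is known for maintaining IL7R, KLF2 and homing genes. The KMT2A-FOXO4 fusion joins the front part of the histone methyltransferase KMT2A to the back part of FOXO4. Counts per gene do not separate reads of the fusion from reads of an unrearranged FOXO4 or KMT2A gene, and the position of the break was not analysed here.

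Between 45560303 and 97077335 reads per library were assigned to genes, so that 3 reads, used as the floor of detection, correspond to between 0.0309 and 0.0658 CPM, the reads of a gene scaled to the library total. MEF2C itself had 0 to 2 reads in every library, at or under that floor, and therefore could not check the labels. MEF2C hairpin replicate 3 stood apart in one respect, with 16.1% of its reads aligned to more than 1 place, against 3.56 to 6.86% in the other 5 libraries. T-lineage markers were abundant, as TCF7 had a mean of 1312 CPM, LCK 822, CD3E 593 and BCL11B 444 in the scramble libraries. Several genes listed as markers of other lineages were at or near 0, among them MS4A1, PAX5, CD33 and FCGR3A, but not all. CD79A had a mean of 2.51 CPM, CEBPA 4.11, HBB 2.24 (mainly scramble replicate 1) and WT1 140 CPM in the scramble libraries. A single gene such as WT1 was not taken to show cells of another lineage. Of the 8 B-lineage, 10 myeloid and 8 erythroid or megakaryocytic markers, 2, 4 and 3 had enough reads to be tested.

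The FOXO proteins share a DNA-contacting recognition helix in the forkhead domain, and the coding stretch around it is shown because it tells how far the 4 transcripts can be told apart by sequence. Each run below has 60 bases from transcripts of GENCODE 29 on GRCh38, written 5′ to 3′ and coding in the 4 FOXO genes. Capitals mark the bases that differ from FOXO3, and FOXO3B is annotated as a processed pseudogene.

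FOXO3: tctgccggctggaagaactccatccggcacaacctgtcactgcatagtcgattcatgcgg

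FOXO1: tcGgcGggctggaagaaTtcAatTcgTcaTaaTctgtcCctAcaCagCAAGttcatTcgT

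FOXO4: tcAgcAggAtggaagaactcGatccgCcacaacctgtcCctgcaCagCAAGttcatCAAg

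FOXO6: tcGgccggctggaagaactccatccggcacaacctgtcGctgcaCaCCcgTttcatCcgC

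FOXO3B: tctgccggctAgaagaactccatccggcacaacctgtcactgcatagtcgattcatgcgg

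FOXO1 differed from FOXO3 at 17 of these 60 bases, FOXO4 at 14 and FOXO6 at 8. Most of these differences were silent, because only 2, 3 and 2 of the 20 encoded residues differed. In FOXO1, FOXO3, FOXO4 and FOXO6 the junction of exons 1 and 2 fell after base 15 of the stretch, directly before the codons of the helix. FOXO3B differed from FOXO3 at 1 base, which makes a stop codon in this frame, and held the whole stretch in 1 exon. The annotated transcripts of the 4 FOXO genes shared 0 words of 50 bases with each other, but 15.7% of the 50-base words of FOXO3 also occurred in FOXO3B, and 64.2% of those of FOXO3B in FOXO3. FOXO3 and FOXO3B counts are therefore uncertain as a pair, and the length of the reads is not known here.

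FOXO4 had the highest level of the FOXO genes in the scramble libraries once length was taken into account. This level pools reads of the fusion and of an unrearranged FOXO4 gene, and the fusion holds only the back part of FOXO4. It is therefore a level per gene and not that of a single transcript. The gene (ENSG00000184481.18) lies on the plus strand of chromosome X from 71096197 to 71103535 in GRCh38, and its merged exons span 3447 bases. Per kilobase of merged exon it had 14.8, 15.5 and 15.3 CPM in scramble replicates 1 to 3 (15.2 ± 0.350, SD, n = 3). FOXO3 (ENSG00000118689.15, chromosome 6, 108559835 to 108684774, plus strand, 7721 exonic bases), the FOXO factor best known from oxidative stress and ageing studies, had 7.64, 7.59 and 7.34 CPM per kilobase (7.52 ± 0.161). FOXO6 (ENSG00000204060.8, chromosome 1, 41361922 to 41383590, plus strand, 2398 exonic bases), first described in brain, had 3.44, 3.85 and 3.72 CPM per kilobase (3.67 ± 0.208). FOXO1 (ENSG00000150907.10, chromosome 13, 40469953 to 40666597, minus strand, 6232 exonic bases) was lowest, with 0.671, 0.50 and 0.647 CPM per kilobase (0.606 ± 0.0929). No library of one gene overlapped a library of its neighbour in this order, so FOXO4, FOXO3, FOXO6 and FOXO1 were distinct levels beyond their spread.

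FOXO4 made up 56.3 ± 0.462% of the summed per-kilobase level of the 4 genes in the scramble libraries (SD, n = 3). FOXO3 gave 27.8 ± 0.799%, FOXO6 13.6 ± 0.561% and FOXO1 2.25 ± 0.376%. The order rests on length, because without it FOXO3 and FOXO4 were nearly level at 58.1 and 52.5 CPM. With the length of the longest-coding transcript in place of merged exons the order was the same, and FOXO6 was at 5.96 CPM per kilobase. That transcript of FOXO6 has no annotated 3′ UTR, so its level per kilobase is less comparable with the others. With the reads of FOXO3B added to FOXO3, an alternative chosen after seeing the data, FOXO3 was at 10.2 CPM per kilobase and still below FOXO4. FOXO3B itself (ENSG00000240445.6, chromosome 17, 18670946 to 18672873, minus strand) had 21.0 ± 1.35 CPM.

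Among the 12162 tested protein-coding genes, 74.0% lay below FOXO4 per kilobase in the scramble libraries, 54.2% below FOXO3, 37.7% below FOXO6 and 17.1% below FOXO1. FOXO1 counts were small, at 139 to 409 reads per library, and counting error alone gave a coefficient of variation of 4.94 to 8.48% per library. The exact Poisson 95% interval of the shallowest library, scramble replicate 2, ran from 2.62 to 3.68 CPM for FOXO1. Such intervals cover counting error only.

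Against the 40 other forkhead genes FOXO4 took the fifth place per kilobase. FOXM1, a driver of mitotic gene expression, led with 53.3 CPM per kilobase. It was followed by FOXN3 at 27.6, FOXJ3 at 23.3 and FOXK2 at 19.7. FOXP4, next below FOXO4 at 14.9 ± 0.513 CPM per kilobase, did not differ from it beyond the spread. FOXO3 came at place 11, FOXO6 at 12 and FOXO1 at 16, below FOXP1 at 1.53 CPM per kilobase. The merged exons of FOXP1 span 36714 bases against 7140 in its longest-coding transcript, and by transcript length FOXP1 had 7.86 CPM per kilobase and came between FOXO3 at place 11 and FOXO6 at 13. FOXO4 and FOXO1 kept places 5 and 16. Of the 40, 24 had too few reads to be tested and 12 had no read in any library.

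**Figure D1:**
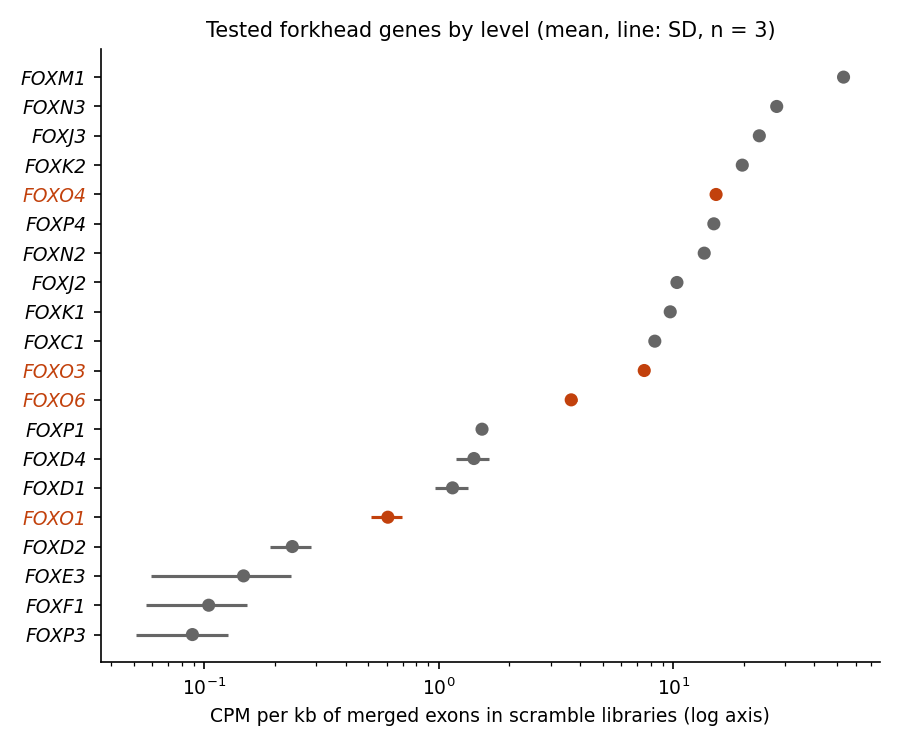
Level of each tested forkhead gene in the scramble libraries as CPM per kilobase of merged exons, on a log axis, with the mean as a point and the SD over 3 libraries as a line; the FOXO genes are in orange. FOXO4 at 15.2 lies among the abundant forkhead genes, FOXO3 and FOXO6 lie in the middle and FOXO1 lies at 0.606.

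The MEF2C hairpin was then compared with the scramble control. Across all tested genes edgeR's quasi-likelihood test passed 28.8% at a Benjamini-Hochberg adjusted p under 0.05. Of all tested genes, 13.5% passed as higher with the MEF2C hairpin and 15.3% as lower. The CPM values of the groups did not overlap for 39.9% of genes. At this precision small differences pass easily, and among genes of 20 to 100 CPM, where FOXO3 and FOXO4 lie, 17.0% passed as higher and 23.5% as lower. Of the 4 FOXO genes, FOXO3 and FOXO4 passed as lower, FOXO6 passed as higher and FOXO1 did not pass. The groups did not overlap for 2 of the 4. With 4 genes these counts cannot be set apart from the shares over all genes. In bulk RNA, fewer cells of a type and less RNA per cell cannot be told apart.

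FOXO3 fell with the MEF2C hairpin, from 59.0, 58.6 and 56.6 CPM in scramble replicates 1 to 3 to 52.3, 50.7 and 51.4 CPM in MEF2C hairpin replicates 1 to 3. All 3 scramble libraries lay above all 3 hairpin libraries. The means were 58.1 ± 1.25 and 51.5 ± 0.806 CPM (SD, n = 3), and the log2 fold change in edgeR was -0.17 (SE 0.0359, adjusted p = 0.000199). This call held under all 13 alternatives and with FOXO3B reads added. FOXO3B also passed as lower by edgeR (log2 fold change of -0.17, SE 0.0599, adjusted p = 0.0307), with groups that overlapped and a call lost under 5 alternatives.

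FOXO4 was also lower with the MEF2C hairpin. It had 51.2, 53.5 and 52.8 CPM in the scramble libraries and 48.3, 50.01 and 48.6 CPM in those of the MEF2C hairpin. The groups did not overlap, but their gap was narrow, between 50.01 CPM in hairpin replicate 2 and 51.2 CPM in scramble replicate 1. In edgeR the change was -0.10 on the log2 scale (SE 0.0372, adjusted p = 0.0429), which is a ratio of means of 0.932. The call was lost in 10 of 13 alternatives while the direction held in each. Those 10 included DESeq2, limma-voom and leaving out any 1 of scramble replicates 2 and 3 and hairpin replicates 1 and 3, with adjusted p-values up to 0.143.

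FOXO6 was the FOXO gene with a higher mean in the MEF2C hairpin libraries past the threshold. Its scramble libraries had 8.26, 9.23 and 8.92 CPM and its MEF2C hairpin libraries 11.4, 8.92 and 11.1 CPM. Hairpin replicates 1 and 3 lay above every scramble library, whereas hairpin replicate 2, the deepest library, lay within the scramble range. The edgeR estimate was a log2 fold change of 0.24 (SE 0.0885, adjusted p = 0.0337). It lost the call in 6 of 13 alternatives, which were DESeq2, limma-voom and leaving out scramble replicate 1 or 3 or hairpin replicate 1 or 3. Leaving out 1 library at a time gave log2 fold changes from 0.17 to 0.36.

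FOXO1 did not pass the test. It had 4.18, 3.11 and 4.03 CPM with the scramble control and 3.25, 4.14 and 3.81 CPM with the MEF2C hairpin. The groups overlapped throughout, and scramble replicate 2 was the lowest of all 6. Its log2 fold change in edgeR was -0.02 (SE 0.135, adjusted p = 0.944), and its approximate 95% interval from -0.28 to 0.25 is wider than the differences seen for FOXO3 and FOXO4.

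**Figure D2:**
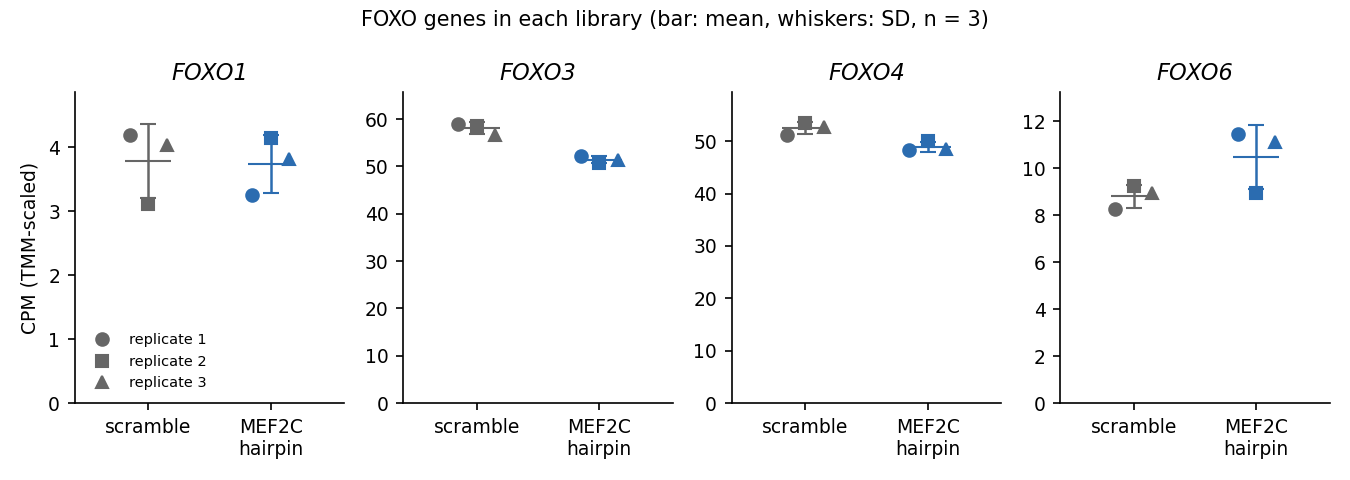
CPM of each FOXO gene in each library, with TMM-scaled library sizes and axes that start at 0; symbols give the replicate number, the long bar is the mean and the whiskers are the SD over 3 libraries. The groups of FOXO3 and FOXO4 do not overlap, hairpin replicate 2 of FOXO6 lies within the scramble range, and those of FOXO1 overlap throughout.

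Ratios within a library do not depend on the scaling between libraries. The log2 CPM ratio of FOXO3 to FOXO6 was 2.84, 2.67 and 2.67 with the scramble control and 2.19, 2.51 and 2.21 with the MEF2C hairpin. That of FOXO4 to FOXO6 was 2.63, 2.54 and 2.57 against 2.08, 2.49 and 2.13. For both ratios every hairpin library lay below every scramble library. The difference was -0.42 for FOXO3 to FOXO6 and -0.35 for FOXO4 to FOXO6, and each had an exact two-sided permutation p of 0.1, the smallest that 3 against 3 libraries can give (0.3 after Benjamini-Hochberg adjustment over 6 pairs). The ratio of FOXO3 to FOXO4 overlapped between the groups, with a difference of -0.07 (exact permutation p = 0.2, adjusted 0.4), so a larger fall of FOXO3 than of FOXO4 was not shown. The 3 ratios with FOXO1 had exact permutation p-values of 0.4 to 0.6.

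The 4 genes summed to 27.0 ± 0.436 CPM per kilobase with the scramble control and 25.8 ± 0.334 with the MEF2C hairpin (SD, n = 3). FOXO4 remained the largest share there, at 55.0 ± 1.76%, with FOXO3 at 25.8 ± 0.178%, FOXO6 at 16.9 ± 2.00% and FOXO1 at 2.32 ± 0.307%. The order of the 4 levels was the same in both groups.

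**Figure D3:**
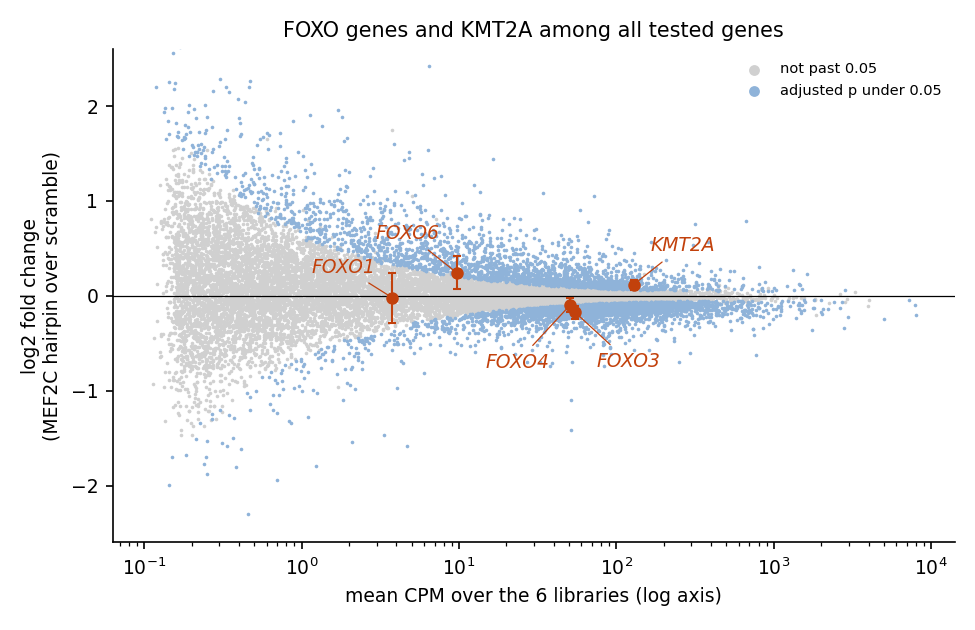
Log2 fold change of the MEF2C hairpin over the scramble control against the mean CPM over the 6 libraries (log axis) for all tested genes, with genes past an adjusted p of 0.05 in blue, the FOXO genes and KMT2A in orange with approximate 95% intervals, and 7 genes beyond the vertical axis. The FOXO genes lie close to 0, from -0.17 for FOXO3 to 0.24 for FOXO6.

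KMT2A, the other partner of the fusion, moved in the opposite direction to FOXO4. The gene (chromosome 11, 118436464 to 118526832, plus strand) had 126, 123 and 121 CPM with the scramble control and 130, 135 and 137 CPM with the MEF2C hairpin. No hairpin library overlapped a scramble library. The log2 fold change of KMT2A was 0.12 (SE 0.0268, edgeR adjusted p = 0.000654), and the call held under all 13 alternatives. Exons of other annotated genes cover 18.9% of its exon length. Among the neighbours of FOXO4 within 100 kilobases, SNX12, IL2RG, MED12 and NLGN3 did not pass, with log2 fold changes between -0.06 and 0.12. IL2RG, the common gamma chain of interleukin receptors, lies on the minus strand with its nearer, 3′ end 3869 bases after FOXO4 and its start 8573 bases after it, and 50.8% of its exon length is shared with another annotated gene.

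The genes most like each FOXO gene over the 6 libraries were found by Pearson's r of log2 CPM among 9454 protein-coding genes of at least 5 CPM. For FOXO3 these were TIPRL (r = 0.999), ELAVL1 (0.998) and UBR4 (0.998), and 707 genes reached an r of 0.95. For FOXO4 they were SLC12A7 (0.999), SUSD1 (0.997) and CYCS (0.996), for FOXO6 TMEM65 (0.994), TMEM70 (0.993) and DENND1C (0.980), and for FOXO1 LDAH (0.967), YAF2 (0.962) and GPR35 (0.95). These are descriptions over 6 points that share 2 groups. By Spearman's rho the lists cannot be ranked, because 88 genes tie at a rho of 1 with FOXO3, 64 with FOXO4, 15 with FOXO6 and 5 with FOXO1, and the lowest rho among the genes named was 0.771, for GPR35. Likeness of this degree was common for a gene with the FOXO3 pattern and rare for FOXO1, where 3 genes reached 0.95.

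Among the 16 other forkhead genes tested, 3 passed as higher and 4 as lower, against 17.0% and 23.5% of all genes at 20 to 100 CPM, where the list's median level of 61.6 CPM lies. The median log2 change was 0.02 against 0.00410 over all tested genes, and the difference from those shares was not tested. FOXP4 rose from 91.9 ± 3.17 to 107 ± 4.96 CPM (log2 fold change 0.22, edgeR adjusted p = 1e-06). FOXJ2 (0.15) and FOXK1 (0.12) also rose. FOXJ3 fell by 0.18 and FOXN3 by 0.14 on the log2 scale, and FOXM1 fell by 0.08, a call that was lost without hairpin replicate 3. FOXN2 (0.01) and FOXP1 (-0.10) did not pass. FOXP1 passed as lower with limma-voom (log2 fold change -0.12, adjusted p = 0.0391) and without hairpin replicate 3 (-0.16, edgeR adjusted p = 0.00304).

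The pathway that acts on FOXO proteins was read from lists of its genes. Of 27 genes upstream of FOXO, from the insulin and IGF1 receptors to PI3K, AKT, mTOR and their phosphatases, 2 rose and 11 fell, with a median log2 fold change of -0.07. The share lower exceeded the 23.5% of genes at 20 to 100 CPM, a range that holds the median level of the list, 70.1 CPM. For this list and those that follow, the difference from the shares over all genes was not tested. PHLPP1, which dephosphorylates AKT, had 79.6, 82.3 and 77.6 CPM in the scramble libraries and 65.6, 65.1 and 67.9 CPM in the hairpin libraries. It fell by 0.27 on the log2 scale (SE 0.0327, edgeR adjusted p = 2.36e-08), MTOR by 0.18 and PDPK1, the kinase that activates AKT, by 0.19. Genes that brake the pathway and genes that drive it were both among the 11. IGF1R rose by 0.14 and IRS2, an adaptor of the insulin receptor and itself a FOXO target, by 0.37. AKT1 had 276 ± 5.70 and 287 ± 3.45 CPM (log2 fold change 0.06, edgeR adjusted p = 0.0546), and it passed as higher under 4 of 13 alternatives. INPP5D, a phosphatase of blood cells, did not pass (0.04).

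Genes whose products bind, move or modify FOXO proteins were mostly lower, at a level where lower calls were common over all genes. Of 30 listed, 29 were tested, 17 fell and 3 rose, with a median log2 fold change of -0.07. The median level of this list was 141 CPM, and among all genes of 100 CPM or more 44.9% passed as lower and 12.6% as higher. The median log2 fold change over all genes of that level was -0.05. USP7, a deubiquitinase that acts on FOXO4 and on MDM2, had 420, 428 and 419 CPM in the scramble libraries and 344, 350 and 351 CPM in the hairpin libraries. Its log2 fold change was -0.28 (SE 0.0205, edgeR adjusted p = 1.41e-13). MDM2, a ubiquitin ligase of FOXO proteins and of p53, went the other way, from 126 ± 3.73 to 156 ± 5.53 CPM (log2 fold change 0.31, edgeR adjusted p = 1.63e-11). Of the 14-3-3 genes, YWHAB fell by 0.17 and YWHAE by 0.13 on the log2 scale, while YWHAZ, the most abundant at 980 CPM, did not pass (-0.04, edgeR adjusted p = 0.0938). OGT, which adds a sugar to FOXO proteins, fell by 0.19. EP300, an acetyltransferase, had 211 CPM in both groups.

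Genes known as FOXO targets moved in both directions. Of 75 listed, 57 were tested, 20 rose and 15 fell. The share was 61.4% against 28.8% of all tested genes, but most targets lie at levels where more genes pass. At 20 to 100 CPM 15 of 20 targets passed, against 40.4% of all genes there. Of these, 5 were higher and 10 lower, against 17.0% and 23.5% of all genes. At 100 CPM or more 10 of 12 passed, against 57.5%. There 7 were higher and 3 lower, whereas 12.6% of all genes passed as higher and 44.9% as lower. Among 9 targets of 5 to 20 CPM 6 were higher and 0 lower, against 22.4% and 8.75%. Of 9 targets below 1 CPM and 7 at 1 to 5 CPM, 1 rose and 1 fell in each range. The median log2 change over the 57 was 0.04. The lists draw on textbook knowledge of several tissues, and many of their genes answer to other factors too.

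The lymphocyte targets are the genes by which FOXO1 is best known in T cells, and most were low in Karpas-45. Of 13 listed, 9 were tested, 2 rose and 2 fell, with a median of -0.00288. The median level of this list was 0.725 CPM, and below 1 CPM 4.9% of all genes passed as higher and 1.101% as lower. Among all genes of 1 to 5 CPM these shares were 14.0% and 3.52%. TCF7, 1 of the 2 that rose, lies far above both ranges. KLF2 (chromosome 19, 16324817 to 16327874), a transcription factor of T-cell quiescence and migration, had 2.79, 2.89 and 2.20 CPM in the scramble libraries and 1.51, 1.69 and 1.35 CPM in the hairpin libraries. All hairpin libraries lay below all scramble libraries, and the log2 fold change was -0.77 (SE 0.175, edgeR adjusted p = 0.000650). S1PR1, the receptor for egress from lymphoid organs and a target of KLF2, was near the floor, with 28, 19 and 19 reads under the scramble control and 5, 14 and 4 under the MEF2C hairpin. Its log2 fold change was -1.88 (SE 0.515, edgeR adjusted p = 0.00451), DESeq2 gave no adjusted p for it, and under a filter of 1 CPM it was not tested. The 3′ UTR of S1PR1 holds 1 match to the seed of the hairpin, described below with those of the other targets, whose part in this fall was not tested.

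IL7R, the interleukin-7 receptor chain, had 0.673, 0.336 and 0.533 CPM in the scramble libraries and 0.875, 1.12 and 0.809 CPM in the hairpin libraries. It thus passed in the opposite direction to KLF2 and S1PR1, by 0.85 on the log2 scale (SE 0.291, edgeR adjusted p = 0.0239). The call was lost without scramble replicate 2 or 3 or hairpin replicate 2, with adjusted p-values of up to 0.179. TCF7, the abundant T-lineage factor, went from 1312 to 1371 CPM (0.06, edgeR adjusted p = 0.0105), a call lost without scramble replicate 3 or hairpin replicate 1. CCR7, FOXP3 and EOMES did not pass, with log2 fold changes between -0.03 and 0.07. RAG1 had 58, 10 and 64 reads in the scramble libraries against 27, 41 and 26, and scramble replicate 2 stood low. The log2 fold change of RAG1 was -0.74 (edgeR adjusted p = 0.144) with that library and -1.14 (adjusted p = 0.00711) without it, whereas it was -0.40 (adjusted p = 0.567) without scramble replicate 3. RAG2, CTLA4 and BLNK had too few reads to be tested.

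Quiescence and cell cycle targets split evenly, with 6 of 17 tested genes higher and 6 lower, against 17.0% and 23.5% of all genes at 20 to 100 CPM, where the list's median of 32.1 CPM lies. CDKN1A, the p21 inhibitor of cyclin-dependent kinases and also a p53 target, rose from 4.73, 5.38 and 5.75 CPM to 11.1, 11.2 and 10.8 CPM, by 1.06 on the log2 scale (SE 0.0900, edgeR adjusted p = 4.95e-12). TXNIP, an inhibitor of thioredoxin and glucose uptake, rose from 26.7, 26.5 and 23.8 to 37.9, 39.1 and 38.4 CPM (0.59, SE 0.0478, edgeR adjusted p = 1.95e-12). For both genes the groups lay far apart relative to their spread. TOB1 (0.24) and GADD45B (0.36) rose, and the antiproliferative gene BTG1 fell by 0.21. CDKN1B, the p27 inhibitor and the best known FOXO target of this group, was lower by 0.07 on the log2 scale (edgeR adjusted p = 0.0402), a call lost under 9 of 13 alternatives. PLK1 (0.04) and CITED2 (-0.01) did not pass.

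Of the cell death targets, 2 of 7 tested genes rose and 0 fell by edgeR, DESeq2 or limma-voom. The median level of this list was 34.2 CPM, and at 20 to 100 CPM 17.0% of all genes passed as higher and 23.5% as lower by edgeR. With 7 genes these counts cannot be set apart from those shares. TRADD, an adaptor of the TNF receptor, was lower at an unadjusted p under 0.05 (the 1 such gene) and passed when hairpin replicate 3 was left out. TNFSF10, the death ligand TRAIL, had 24.5, 20.2 and 21.0 CPM in the scramble libraries and 45.6, 45.6 and 48.3 CPM in the hairpin libraries, a rise of 1.08 on the log2 scale (SE 0.0525, edgeR adjusted p = 5.92e-18). BCL2L11, the BH3-only protein BIM, rose from 105 ± 1.75 to 116 ± 1.86 CPM (0.15, edgeR adjusted p = 2.76e-05). PMAIP1 (-0.02) and BNIP3L (0.09) did not pass, and BNIP3L passed as higher under 3 alternatives.

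Metabolic, stress and autophagy targets had 10 of 24 tested genes higher and 7 lower, with a median of 0.08. Their median level was 56.2 CPM, in the same range of 17.0% higher and 23.5% lower over all genes. Besides IRS2, the autophagy kinase gene ULK1 rose by 0.13. BECN1, a core autophagy gene, fell by 0.28, CTDSP2 by 0.18 and MAP1LC3B by 0.14 on the log2 scale. RICTOR (0.00) and PIK3C3 (0.01) did not pass. INSR, IRS2, RICTOR and PIK3CA stand in this list and in the upstream list, TCF7 is also a T-lineage marker and FOXP3 also a forkhead gene.

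**Figure D4:**
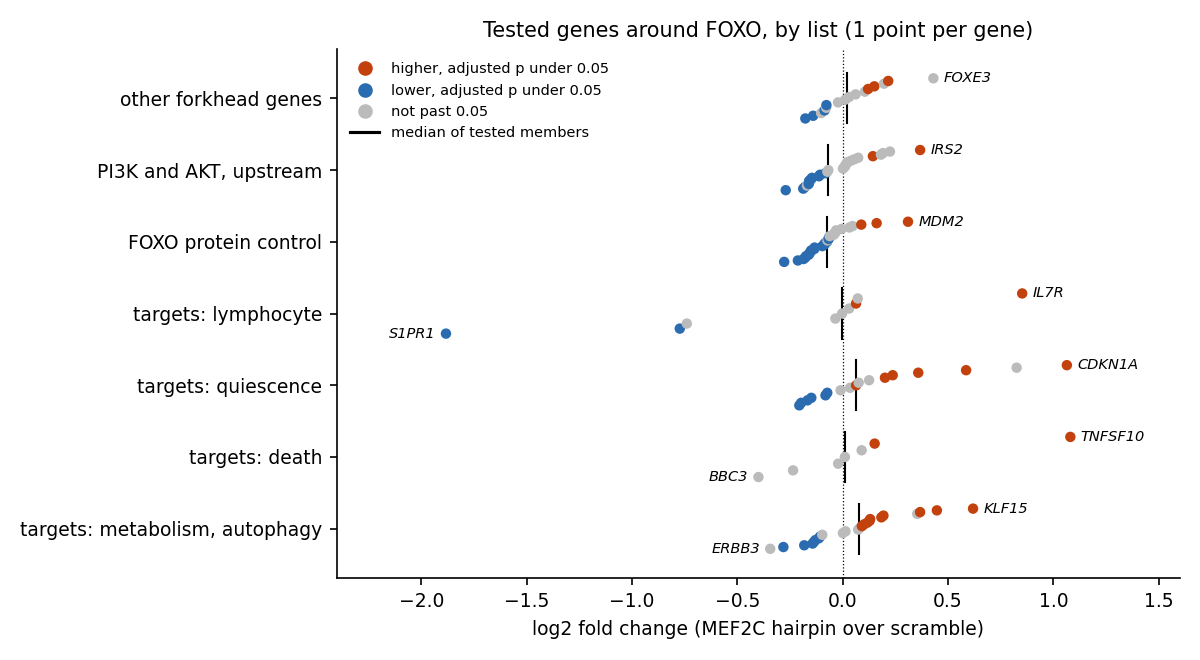
Log2 fold change of the MEF2C hairpin over the scramble control for each tested gene of the lists around FOXO, 1 point per gene, with higher calls in orange, lower calls in blue, genes that did not pass in grey and the median of each list as a black line. Genes of FOXO protein control lie mostly below 0 with a median of -0.07, against -0.05 over all genes of 100 CPM or more. The FOXO targets spread from S1PR1 at -1.88 to TNFSF10 at 1.08.

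The core FOXO motif GTAAACA was searched on both strands, with its reverse complement TGTTTAC, in the 250 bases before gene starts of RefSeq on GRCh38.p14. It occurred in 9 of 61 FOXO targets with such a window (14.8%) and in 1000 of 27305 genes (3.66%). A gene with several starts was counted if any of its windows held the motif, so such genes had more chances. Among targets that passed the test in either direction 6 of 34 held it, and among those tested that did not pass, 1 of 13. Over all tested genes with a window the share was 2.87%. None of the FOXO genes held the motif in these windows, and none held the MEF2 motif, which was found in 0.641% of genes. The 6 windows of the targets that passed are shown on the strand of the gene with the motif in capitals, because they belong to listed targets whose levels changed.

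TXNIP: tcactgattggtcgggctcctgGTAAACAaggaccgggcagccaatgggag

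BCL2L11: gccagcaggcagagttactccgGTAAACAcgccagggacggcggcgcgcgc

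MXI1: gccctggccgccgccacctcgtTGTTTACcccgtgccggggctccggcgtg

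TCF7: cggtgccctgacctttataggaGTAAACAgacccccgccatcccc

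PIK3CA: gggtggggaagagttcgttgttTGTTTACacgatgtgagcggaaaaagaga

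BTG1: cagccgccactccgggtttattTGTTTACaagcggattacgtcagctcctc

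They lie at chr1:145996675-145996725 (minus strand) for TXNIP, chr2:111120669-111120719 (plus) for BCL2L11, chr10:110210058-110210108 (plus) for MXI1, chr5:134115568-134115612 (plus) for TCF7, chr3:179148186-179148236 (plus) for PIK3CA and chr12:92146027-92146077 (minus) for BTG1. TXNIP, BCL2L11, MXI1 and TCF7 rose, with log2 fold changes of 0.59, 0.15, 0.20 and 0.06, whereas PIK3CA and BTG1 fell by 0.11 and 0.21. A motif match was thus found with both directions. The calls of MXI1, PIK3CA and TCF7 were each lost under 2 alternatives. CDKN1A and TNFSF10, the targets with the largest increases, had no match in this window.

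A short hairpin can also act on transcripts that match bases 2 to 8 of its guide strand. The site for this hairpin, GGAATGA, was counted in the 3′ UTR of GENCODE 29. FOXO1, FOXO3, FOXO4 and KMT2A held 0 copies, while 10.3% of 11885 tested genes with a 3′ UTR held at least 1, as did 12.6% of those that passed as lower. No 3′ UTR is annotated for FOXO6 there. Of the tested FOXO targets, S1PR1, BTG1 and CTDSP2, which fell, held 1 copy each, SESN1, which passed as higher but lost the call under 8 alternatives, held 2, and BBC3, BNIP3L and PIK3IP1, which did not pass, held 1 each.

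Markers of cell types other than the labelled one were read in the same fit. T-lineage markers summed to 4754 to 4850 CPM in the scramble libraries and 4902 to 5014 CPM in the hairpin libraries, with 9 of 15 higher and 1 lower. Their median level was 206 CPM, and at 100 CPM or more 12.6% of all genes passed as higher and 44.9% as lower. B-lineage markers summed to 3.03 to 3.60 against 4.03 to 4.17 CPM, with 0 of 2 tested markers passing by edgeR, DESeq2 or limma-voom and 1 higher at an unadjusted p under 0.05. Myeloid markers summed to 5.83 to 6.25 against 7.01 to 7.40 CPM, with CEBPA as the 1 of 4 that passed. The median level was 1.84 CPM for the B-lineage list and 0.784 CPM for the myeloid list. Among all genes of 1 to 5 CPM 14.0% passed as higher and 3.52% as lower. Below 1 CPM these shares were 4.9% and 1.101%. CEBPA, at 4.11 CPM in the scramble libraries, lies above the median of its list. The difference from these shares was not tested. Erythroid and megakaryocytic markers overlapped, at 0.850 to 6.48 and 1.53 to 2.33 CPM. Stromal and kidney markers, nearly all of it WT1, summed to 139 to 142 and 136 to 137 CPM. The T-lineage, B-lineage and myeloid sums were higher in every hairpin library than in any scramble library, and the part of such shifts in the FOXO results was not tested.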

How the data were processed

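RNA was measured in 6 Karpas-45 libraries, 3 per group. The authors deposited whole-number read counts per gene, 1 file per library, with no normalization. Per the labels' protocols, TRIzol served for RNA extraction and a TruSeq kit for the libraries. Trim Galore, STAR, HTSeq and the build hg38 were used, per the submitters' processing notes. Versions, annotation release, strand setting and read length are not given in the sources used here; reads of overlapping genes on opposite strands may not be told apart. Over 10% of exon length is shared with other genes for KMT2A, FOXM1, FOXN3, FOXK2, PDPK1, PIK3CA, RAG2, TOB1, BTG1, PLK1, BCL2L11, BECN1, GPR35, TMEM70, CEBPA and IL2RG.

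The 5 lines of each file that name no gene (19.2 to 31.4% of reads) stayed out of totals and tests. Of 78932 identifiers 61481 matched a symbol, and positions and exon lengths came from GENCODE 29. Genes were kept by filterByExpr (minimum count 10), scaled by TMM and fitted with edgeR 4.0.16 (R 4.3.3, robust quasi-likelihood, only group as a term). A log2 fold change above 0 means higher with the MEF2C hairpin, its SE comes from its size and the F statistic, intervals are 1.96 SE either way, and p-values were adjusted by Benjamini-Hochberg over all tested genes. Log2 CPM for likeness used a prior count of 2. The fit was tested on simulated counts. Alternatives were RLE and upper-quartile scaling, no filter, 1 CPM in 3 libraries, a replicate block, each library left out, DESeq2 1.42.0 and limma-voom (limma 3.58.1).

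The members, lists and tests were chosen with earlier results of these data known. Named are the FOXO genes, FOXO3B, KMT2A and MEF2C, every lymphocyte target, up to 5 called genes of smallest adjusted p and 2 others of highest level in each other list, the 3 forkhead genes of highest level and the 3 genes most like each FOXO gene. FOXK2, CDKN1B, MXI1, PIK3CA, TRADD, SESN1, BBC3, PIK3IP1, the markers of other lineages and the neighbours of FOXO4 were named after their values were seen, as were genes labelled in the plots. Some genes that this rule names are counted in their lists but are not reported here by name.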

Additional observations from a re-analysis of the deposited data

Results flagged for a closer look

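Reads outside annotated genes took 12.1, 12.5 and 11.9% of all reads in MEF2C hairpin replicates 1 to 3, above the highest scramble library at 11.6%. In MEF2C hairpin replicate 3, 16.1% of reads aligned to more than 1 place, above the highest scramble library at 6.86%. These reads enter no gene count. In that library FOXO1, FOXO3, FOXO4 and FOXO6 had 3.81, 51.4, 48.6 and 11.1 CPM, each within the range of the other hairpin libraries. Without it, FOXO3 still passed as lower, while FOXO4 and FOXO6 did not pass.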

How the results depend on the processing

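Over the 13 alternatives FOXO3, KMT2A and the count of called genes (4113 to 5082) kept direction and call or size, and FOXO1 never passed. FOXO4 lost its call at -0.0877 with upper-quartile scaling, -0.0961 with no filter, -0.0866 with at least 1 CPM in 3 libraries, -0.0979 with DESeq2 and -0.0933 with limma-voom, and it ranged from -0.117 to -0.0837 when single libraries were left out. FOXO6 lost its call at 0.248 with DESeq2 and 0.208 with limma-voom and ranged from 0.174 to 0.359 without single libraries. The cause was not tested. The replicate numbers did not pair the libraries (correlations of same-numbered deviations -0.0135, -0.0137 and -0.0031). A fit with the replicate block gave FOXO4 -0.101 with an edgeR adjusted p of 0.0520 and changed the call of no other FOXO gene. With 1 CPM in 3 libraries, 1 lymphocyte target passed as higher and 1 as lower, because fewer were tested, and with DESeq2 1 passed as lower. Without single libraries the lists gave 1 to 3 higher genes of FOXO protein control, 0 to 2 higher and 2 to 3 lower lymphocyte targets, 3 to 6 lower quiescence targets and 0 to 1 lower death targets. By the longest-coding transcript FOXO3 was at 7.91, FOXO4 at 15.9 and FOXO6 at 5.96 CPM per kilobase, and with FOXO3B reads added FOXO3 was at 10.2. Of 65 other tested genes that were named by the rule, 39 passed, 34 of them under every alternative that tested them, and 0 reversed. Genes named after their values were seen are outside this count. Among them CDKN1B, SESN1, MXI1 and PIK3CA passed but each lost the call under some alternatives. S1PR1, IL7R and RAG1 had at most 111 reads in a library and FOXO1 at most 409.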

Other observations

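A pair of 7-base words other than the hairpin's seed site, TGAGAAA and TTGAGAA, had drawn attention in earlier results of these data. TGAGAAA occurred 3 times in the 3′ UTR of FOXO3, 2 times in that of KMT2A and 0 times in those of FOXO1 and FOXO4. It was present in 20.4% of tested genes with a 3′ UTR, in 30.2% of those that passed as lower and in 16.4% of those that passed as higher. Because attention to these words came from the same data, the shares are not independent evidence. The length of the 3′ UTRs was not taken into account. It was 4976 bases in FOXO3, 4660 in KMT2A, 3382 in FOXO1 and 1451 in FOXO4. TTGAGAA occurred 1 time each in FOXO1 and KMT2A and 0 times in FOXO3 and FOXO4. FOXO3, which fell, and KMT2A, which rose, both held the first word.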
